A study of Mus musculus with 7 samples.

Results

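The comparison described here set the array of control siRNA cells (siCtrl) against the array of cells that received Gata4, Tbx5 and Mef2c isoform 2 fused to the MyoD transactivation domain (GT/M2TAD). It used 2 of the 7 arrays of the series, 1 in each group, across 19505 genes named on the Clariom S mouse array, a single-colour chip with probes for annotated transcripts. All cells were mouse embryonic fibroblasts (MEFs). In siCtrl cells, Gata4 and Tbx5 (GT) were delivered by retrovirus with Mef2c, and a control siRNA, a short double-stranded RNA meant to target no gene, was added. The labels of the siCtrl array disagree about Mef2c: the title gives isoform 2 alone (GT/M2), whereas the source name and characteristics give the fusion (GT/M2TAD). In GT/M2TAD cells the same 2 factors were delivered with the fusion and no siRNA is named. If the title holds, the siRNA and the MyoD domain both differ between the arrays and their parts cannot be told apart. If the source name and characteristics hold, both arrays carried the fusion, and the siRNA is the only difference named. Which label holds was not settled, so the signal on the GT/M2 array is given for the genes a paragraph turns on and for each gene named here whose count is lost, or whose sign turns, when GT/M2 stands in for GT/M2TAD. The other arrays were siEp300 (siRNA against Ep300, with the same conflict of labels), GT/M1 and GT/M6 (Mef2c isoforms 1 and 6) and MEF (untreated fibroblasts). Transduced cells had their medium replaced 24 h after infection and were harvested at 1 week. Each was a bulk sample of virus-treated fibroblasts with no sorting named in the labels.

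Gata4, a zinc-finger factor, Tbx5, a T-box factor, and Mef2c, a MADS-box factor, together turn on heart muscle genes in fibroblasts, a procedure called direct cardiac reprogramming. The transactivation domain of MyoD, the skeletal muscle master regulator, recruits coactivators that include the acetyltransferase p300, the product of Ep300. During reprogramming, sarcomere, calcium handling and mitochondrial genes of the heart are switched on while fibroblast genes for collagen, other matrix proteins and contractile proteins of the smooth muscle type are switched off. In bulk RNA, fewer cells of a type and less RNA per cell cannot be told apart.

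The delivered factors came first. Their signals do not settle the label of the siCtrl array, because Mef2c was about as high on GT/M2 (18.82) as on GT/M2TAD. Mef2c had a log2 signal of 18.87 on siCtrl and 18.64 on GT/M2TAD, against 8.24 on MEF. Tbx5, which was delivered to both, had 14.83 on siCtrl and 16.14 on GT/M2TAD, a difference of -1.31, and it stood at 14.82 on siEp300, 16.23 on GT/M2, 16.19 on GT/M1, 16.22 on GT/M6 and 5.72 on MEF. Both siRNA arrays were therefore lower in Tbx5 than the 4 other transduced arrays. Gata4 had 3.57 on siCtrl and 4.96 on GT/M2TAD, and on none of the 7 arrays did it reach the background level set out below, the transduced ones included. Myod1 had 3.39 on siCtrl and 3.21 on GT/M2TAD, also below background, which does not bear on the fused domain, since the position of the probes is not given in the sources used here. Ep300 had 9.90 on siCtrl and 9.98 on GT/M2TAD.

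With 1 array in each group there was no spread between replicates, no test and no p-value, so no difference here has a replicate check. All differences are log2 signal on siCtrl minus log2 signal on GT/M2TAD, where 1 is 2-fold. A gene counted as higher or lower when the difference was at least 1 in size and the larger signal reached the floor of its array, the level below which 95% of negative-control probes lay, 8.43 on siCtrl and 9.04 on GT/M2TAD. Among negative-control probes that reached it, 198 of 344 (57.6%) were themselves 2-fold apart, so a single gene near the floor carries little weight. These probes were picked by their larger signal against a floor set from the same probes, so the share is not a rate of false calls among genes. Over all genes the median difference was -0.14, and it was -0.46 over the negative-control probes and -0.08 over the positive-control probes. The siCtrl array shared exactly identical values with the MEF array in 23 probe sets, 10 of them among the 23 background sets, against 1 and 0 with GT/M2TAD; the part of this in the results was not tested.

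By this rule 349 genes (1.79% of 19505) were higher on siCtrl and 599 (3.07%) were lower, 948 (4.86%) in all. Counted over the 5595 genes that reached the floor, these were 6.24% higher and 10.7% lower, or 16.9% in all. List counts below are over measured members, and lists differed in how many reached the floor, so they are to be read beside these shares. With the floor at the median gene of each array, 592 (3.04%) were higher and 1245 (6.38%) lower. The higher group held the larger differences: 115 of its genes were at least 4-fold apart, as were 91 of the lower genes, and 43 against 19 were at least 8-fold apart. Which group was more numerous depended on scaling. As deposited, 36.81% of the genes counted were higher, and the share was 54.39% after centring each array on its median, 55.02% after quantile normalization and 59.0% after level-dependent centring. For scale, siCtrl and siEp300 were 2-fold apart at 0.631% of genes, and siCtrl and GT/M2 at 9.89%.

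**Figure D1:**
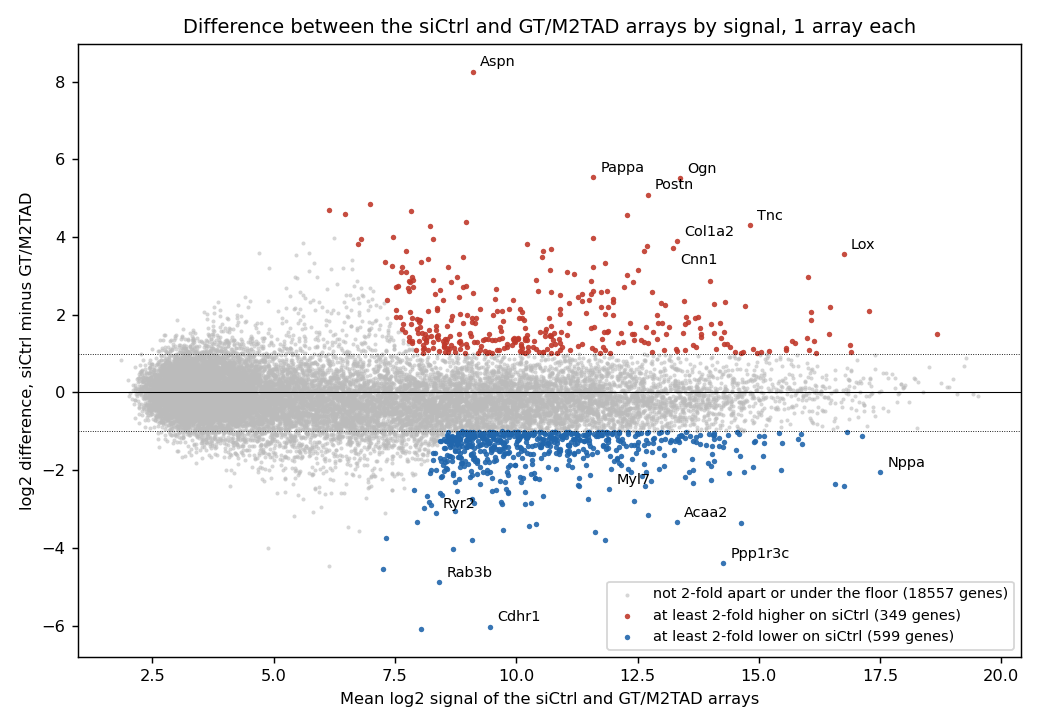
Each point is 1 gene, with the mean log2 signal of both arrays on the x axis and the log2 difference, siCtrl minus GT/M2TAD, on the y axis; dotted lines mark 2-fold. The 349 higher genes reach further from 0, up to 8.25 for Aspn, and the 599 lower genes are more numerous.

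The clearest group was the extracellular matrix. Of 42 measured matricellular and elastic fibre genes, which encode proteins that organise the matrix or signal from it, 19 were higher and 1 was lower, with a median difference of 1.28 beside -0.14 over all genes. Aspn, which encodes asporin, a small leucine-rich proteoglycan that binds TGF-beta and collagen, had a signal of 13.23 on siCtrl against 4.98 on GT/M2TAD, and 13.48 on siEp300, 5.42 on GT/M2, 5.58 on GT/M1, 7.34 on GT/M6 and 11.68 on MEF. Its difference of 8.25 was the largest among the named genes, and its GT/M2TAD signal lay below the floor, as did those of the 3 isoform arrays. Ogn, the gene of the related proteoglycan osteoglycin, had 16.14 on siCtrl against 10.63 on GT/M2TAD (5.51), and 16.19 on siEp300, 12.65 on GT/M2, 11.48 on GT/M1, 12.82 on GT/M6 and 12.53 on MEF. Postn, which encodes periostin, a matricellular protein of activated fibroblasts, had 15.25 on siCtrl against 10.17 on GT/M2TAD (5.09), and 15.25 on siEp300, 8.32 on GT/M2, 8.49 on GT/M1, 9.89 on GT/M6 and 11.80 on MEF. For each of these 3 genes both siRNA arrays were above all 5 others, untreated fibroblasts included.

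Tnc, the gene of tenascin-C, had 16.96 on siCtrl against 12.66 on GT/M2TAD, but 17.79 on MEF, so siCtrl lay between the fusion and untreated cells. Fbln2 (fibulin-2) had 14.56 on siCtrl against 10.00 on GT/M2TAD, and Thbs2 (thrombospondin-2) had 14.58 on siCtrl against 10.82 on GT/M2TAD. Cthrc1, a secreted protein of collagen-producing fibroblasts, had 14.07 on siCtrl against 10.93 on GT/M2TAD. Mfap4, a microfibril-associated protein, had 13.79 on siCtrl against 10.78 on GT/M2TAD. These genes were above the floor on both arrays. The single lower member was Efemp1 (fibulin-3), with 13.51 on siCtrl against 14.61 on GT/M2TAD, and its difference of -1.10 became -0.91 after median centring, -0.99 after quantile normalization and -0.98 after level-dependent centring.

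**Figure D2:**
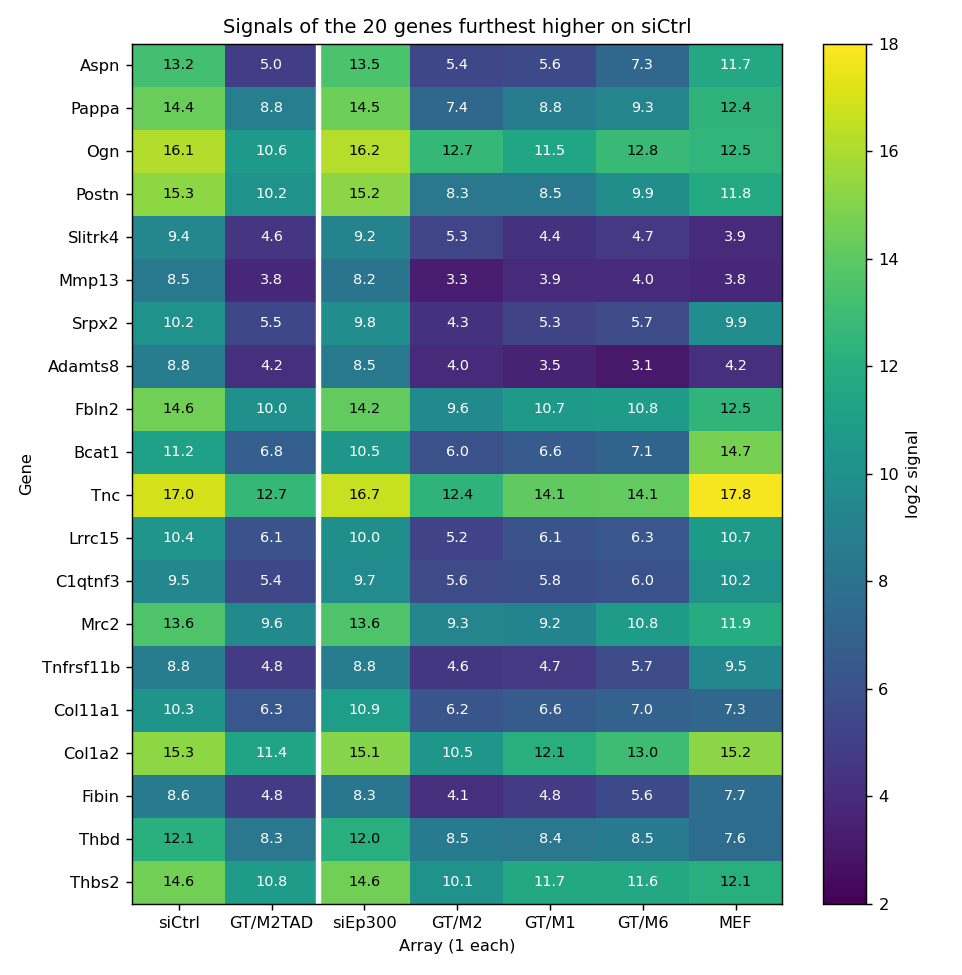
Log2 signals on the 7 arrays (columns, 1 array each) of the 20 genes with the largest positive difference (rows, largest at the top); colour and printed value give the signal. The siCtrl and siEp300 columns are alike for most genes, and 13 of the 20 GT/M2TAD signals lie below the floor of 9.04.

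Among 60 measured collagens and collagen-processing genes, 14 were higher and 1 was lower, with a median of 0.15. The classes differed in how many members reached the floor and so could be counted. Of 11 fibrillar chains, which form the rope-like collagens of connective tissue, 6 reached it and all 6 were higher. The median over the 11 was 2.22. Of 8 basement membrane chains 2 reached it and 0 were higher. Of 22 other chains 2 reached it and both were higher, and of 19 processing genes 14 reached it and 6 were higher. Col1a2, a chain of type I collagen, had 15.26 on siCtrl against 11.36 on GT/M2TAD (3.90), and 15.10 on siEp300, 10.50 on GT/M2, 12.12 on GT/M1, 13.01 on GT/M6 and 15.20 on MEF. Both siRNA arrays thus stood near the untreated fibroblasts and above the 4 transduced arrays without siRNA. Col3a1 had 12.56 on siCtrl against 8.88 on GT/M2TAD, and Col5a1 had 10.33 on siCtrl against 7.59 on GT/M2TAD. Col11a1 had 10.27 on siCtrl against 6.31 on GT/M2TAD. Those 3 GT/M2TAD signals were below the floor. Col10a1, a network-forming chain of hypertrophic cartilage, had 12.16 on siCtrl against 9.65 on GT/M2TAD, and 3.85 on MEF.

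Enzymes that cross-link collagen and elastin were among the higher genes. Lox (lysyl oxidase) had 18.53 on siCtrl against 14.98 on GT/M2TAD, a difference of 3.55 between high signals, and 17.95 on siEp300, 13.90 on GT/M2, 14.38 on GT/M1, 15.36 on GT/M6 and 18.39 on MEF. Its relatives Loxl3, with 12.97 on siCtrl against 10.10 on GT/M2TAD, and Loxl1, with 12.02 on siCtrl against 9.43 on GT/M2TAD, were higher too. Pcolce, which enhances the trimming of procollagen, was the 1 lower gene of the list, with 13.19 on siCtrl against 14.97 on GT/M2TAD. Of 40 proteases and their inhibitors, 9 were higher and 1 was lower (median 0.61), and 8 of the higher ones were proteases. Adamts12, a secreted metalloproteinase, had 14.45 on siCtrl against 10.81 on GT/M2TAD. Mmp2 (gelatinase A) had 12.71 on siCtrl against 9.66 on GT/M2TAD, and Mmp14, the membrane-bound protease that activates pro-Mmp2, had 14.64 on siCtrl against 12.28 on GT/M2TAD. Mmp13, an interstitial collagenase, had 8.48 on siCtrl against 3.79 on GT/M2TAD, with siCtrl barely over the floor. The lower member was the inhibitor Serpina3n, with 13.24 on siCtrl against 14.33 on GT/M2TAD (-1.10, and -0.91 after median centring), and 14.09 on GT/M2.

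Of 17 fibroblast identity markers, 4 were higher and 1 was lower, with a median of 0.13, and the other 12 were not counted. Prrx1, a mesenchymal homeobox factor, had 15.22 on siCtrl against 12.95 on GT/M2TAD. Snai2 (Slug) had 11.16 on siCtrl against 9.09 on GT/M2TAD. Thy1, a surface antigen used to recognise fibroblasts, went the other way, with 12.89 on siCtrl against 15.15 on GT/M2TAD (-2.27), and 12.62 on siEp300, 11.82 on GT/M2, 11.47 on GT/M1, 11.48 on GT/M6 and 13.49 on MEF. For Thy1 the GT/M2TAD array was the highest of the 7.

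Contractile genes of smooth muscle and myofibroblasts, which are fibroblasts with stress fibres, were mostly higher where they were counted. Of 29 measured members 11 were higher and 1 was lower (median 0.85), and all 18 members with a contractile role had a difference above 0, a sign shared by 39.9% of all genes. Cnn1 (calponin 1, an actin-binding protein of smooth muscle) had 15.10 on siCtrl against 11.38 on GT/M2TAD (3.71), and 14.94 on siEp300, 9.39 on GT/M2, 10.42 on GT/M1, 10.18 on GT/M6 and 15.63 on MEF. Myh11, the smooth muscle myosin heavy chain, had 12.26 on siCtrl against 8.79 on GT/M2TAD (3.47), and 12.01 on siEp300, 6.72 on GT/M2, 6.82 on GT/M1, 6.59 on GT/M6 and 9.80 on MEF. Both genes were higher on both siRNA arrays than on the 4 transduced arrays without siRNA. Mylk (myosin light chain kinase) had 10.65 on siCtrl against 8.57 on GT/M2TAD, Actg2 (smooth muscle gamma-actin) had 15.05 on siCtrl against 13.51 on GT/M2TAD, and Pdgfrb (a receptor of pericytes and fibroblasts) had 12.52 on siCtrl against 10.18 on GT/M2TAD. Mrtfb, a coactivator of serum response factor, was the lower member, with 12.16 on siCtrl against 13.47 on GT/M2TAD. Acta2 (smooth muscle alpha-actin), named outside the naming rule after its values were seen, had 19.58 on siCtrl against 18.89 on GT/M2TAD and was not counted.

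Secreted signals formed a further group. Of 41 growth factors and binding proteins, 14 were higher and 1 was lower (median 0.63), and 7 of 14 genes of the insulin-like growth factor (Igf) system were among the higher ones. Pappa, a protease that frees Igf by cutting its binding proteins, had 14.35 on siCtrl against 8.82 on GT/M2TAD (5.53), and 14.47 on siEp300, 7.36 on GT/M2, 8.78 on GT/M1, 9.27 on GT/M6 and 12.39 on MEF. Igf2, the fetal growth ligand, had 17.57 on siCtrl against 15.37 on GT/M2TAD. Igfbp5 had 10.31 on siCtrl against 8.18 on GT/M2TAD, but 12.31 on GT/M2, so siCtrl was above the fusion array and below the GT/M2 array. Nrg1 (neuregulin 1, a ligand of ErbB receptors on cardiomyocytes) had 12.60 on siCtrl against 9.50 on GT/M2TAD. Fgf9 had 9.22 on siCtrl against 6.50 on GT/M2TAD, and 8.84 on GT/M2. Angpt1 had 9.59 on siCtrl against 7.05 on GT/M2TAD, and 9.32 on GT/M2. Against GT/M2 the differences of Fgf9 (0.38) and Angpt1 (0.27) were no longer 2-fold. The lower member was Angptl4, an inhibitor of lipoprotein lipase, with 7.41 on siCtrl against 9.55 on GT/M2TAD.

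Members of the TGF-beta and Bmp pathways differed in both directions: 7 of 35 were higher and 3 were lower, with a median of 0.41. Among ligands, Tgfb3 had 15.46 on siCtrl against 13.13 on GT/M2TAD, and Inhba, an activin subunit, had 13.89 on siCtrl against 11.90 on GT/M2TAD. Bmp4 had 8.65 on siCtrl against 10.42 on GT/M2TAD. Grem1 (gremlin 1), a secreted Bmp antagonist, had 13.49 on siCtrl against 10.16 on GT/M2TAD. Id3, an inhibitor of basic helix-loop-helix factors and a Bmp target, had 6.28 on siCtrl against 9.61 on GT/M2TAD, and 7.95 on siEp300, 9.93 on GT/M2, 9.73 on GT/M1, 9.17 on GT/M6 and 11.66 on MEF. Its relative Id2 had 6.63 on siCtrl against 9.15 on GT/M2TAD. The siCtrl signals of Id2 and Id3 lay below the floor. The receptor Acvr1 was higher, with 8.63 on siCtrl against 7.52 on GT/M2TAD. Other inhibitors and targets of the pathways were higher. Fstl1 had 14.36 on siCtrl against 12.59 on GT/M2TAD, Skil had 12.69 against 11.11, and Pmepa1 had 14.08 against 11.50. Members not counted are named outside the naming rule. Id1 had a difference of -0.09, Smad6 -0.09, Smad7 1.06 and Nog -0.50, all with both signals below the floor. Fst (-0.90) and Fstl3 (0.85) had both signals above it.

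Of 30 integrins and laminins, 6 were higher and 1 was lower (median 0.51), and level-dependent centring raised the 6 to 10. Itgb1, the beta-1 integrin chain that binds collagen and fibronectin, had 19.43 on siCtrl against 17.93 on GT/M2TAD. Hspg2 (perlecan) had 12.90 on siCtrl against 10.28 on GT/M2TAD. Lama4, a laminin chain, had 13.07 on siCtrl against 14.34 on GT/M2TAD, and 12.78 on GT/M2. Of 39 Wnt and Notch genes 4 were higher and 1 was lower, a median of 0.08. Jag1, a Notch ligand, had 10.77 on siCtrl against 8.37 on GT/M2TAD, Wnt5a had 9.46 on siCtrl against 7.29 on GT/M2TAD, and the Wnt antagonist Sfrp1 had 9.34 on siCtrl against 10.84 on GT/M2TAD.

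Other genes among the 20 largest positive differences belong to no list above. Mrc2, an endocytic collagen receptor, had 13.57 on siCtrl against 9.61 on GT/M2TAD. Thbd (thrombomodulin) had 12.13 on siCtrl against 8.32 on GT/M2TAD, and 7.63 on MEF. Lrrc15, a membrane protein of matrix-producing fibroblasts, had 10.36 on siCtrl against 6.09 on GT/M2TAD. Slitrk4, a neuronal transmembrane protein, had 9.41 on siCtrl against 4.56 on GT/M2TAD. Srpx2 had 10.15 on siCtrl against 5.49 on GT/M2TAD, C1qtnf3 had 9.45 on siCtrl against 5.45 on GT/M2TAD, and Tnfrsf11b (osteoprotegerin) had 8.77 on siCtrl against 4.82 on GT/M2TAD. Adamts8 had 8.78 on siCtrl against 4.17 on GT/M2TAD, and Fibin had 8.64 on siCtrl against 4.83 on GT/M2TAD. Apart from Mrc2, the GT/M2TAD signals of the genes of this paragraph were below the floor, so the sizes rest in part on background.

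Heart muscle genes did not move one way. Of 42 measured sarcomere genes, 4 were higher and 6 were lower, with a median of -0.04; median centring gave 7 higher and 5 lower. The promoters of 6 of the 10 genes are shown because each holds a CArG box, the site bound by serum response factor, or a MEF2 box, the site bound by Mef2c, within 250 bases before to 50 after the annotated start (RefSeq, GRCm38.p6). Both motifs were searched by name on both strands, and the match is in capitals. Synpo2l and Ldb3 each had 2 such windows. Their windows were ranked by motif matches and the first is shown. Myom1 (chr17:71019307-71019606, + strand), Xirp2 (chr2:67445752-67446051, +) and Synpo2l (chr14:20668305-20668604, -) were higher on siCtrl, and Myl7 (chr11:5898733-5899032, -), Ldb3 (chr14:34588632-34588931, -) and Mybpc3 (chr2:91117894-91118193, +) were lower. Each is written 5′ to 3′ on the strand of its gene, with a CArG box in Myom1, Myl7 and Ldb3 and a MEF2 box in the others.
Myom1: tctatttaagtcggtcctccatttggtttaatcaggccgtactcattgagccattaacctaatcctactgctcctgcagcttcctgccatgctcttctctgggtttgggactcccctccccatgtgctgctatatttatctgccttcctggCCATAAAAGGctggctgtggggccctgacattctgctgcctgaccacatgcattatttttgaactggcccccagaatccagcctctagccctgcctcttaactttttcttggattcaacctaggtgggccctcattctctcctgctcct
Xirp2: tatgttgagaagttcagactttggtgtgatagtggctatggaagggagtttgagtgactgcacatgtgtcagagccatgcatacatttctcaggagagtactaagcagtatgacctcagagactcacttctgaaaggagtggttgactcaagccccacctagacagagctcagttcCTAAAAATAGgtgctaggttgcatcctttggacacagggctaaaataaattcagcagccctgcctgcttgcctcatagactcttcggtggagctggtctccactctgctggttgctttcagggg
Synpo2l: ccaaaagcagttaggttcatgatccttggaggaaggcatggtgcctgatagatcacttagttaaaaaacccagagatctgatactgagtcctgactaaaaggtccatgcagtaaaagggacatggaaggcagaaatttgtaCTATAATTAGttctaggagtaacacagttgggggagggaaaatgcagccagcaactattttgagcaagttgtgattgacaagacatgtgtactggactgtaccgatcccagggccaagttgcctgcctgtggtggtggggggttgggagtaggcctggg
Myl7: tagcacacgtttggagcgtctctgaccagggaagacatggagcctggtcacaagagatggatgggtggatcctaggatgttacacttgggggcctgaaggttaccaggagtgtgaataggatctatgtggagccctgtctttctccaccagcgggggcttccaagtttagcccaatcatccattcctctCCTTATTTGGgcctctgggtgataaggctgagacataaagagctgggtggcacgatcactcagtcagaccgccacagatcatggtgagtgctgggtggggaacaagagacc
Ldb3: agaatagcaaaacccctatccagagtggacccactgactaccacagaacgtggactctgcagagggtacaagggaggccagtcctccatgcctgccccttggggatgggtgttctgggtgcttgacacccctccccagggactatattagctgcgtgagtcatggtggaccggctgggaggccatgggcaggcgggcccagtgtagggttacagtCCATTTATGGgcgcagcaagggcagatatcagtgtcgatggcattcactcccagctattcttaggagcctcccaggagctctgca
Mybpc3: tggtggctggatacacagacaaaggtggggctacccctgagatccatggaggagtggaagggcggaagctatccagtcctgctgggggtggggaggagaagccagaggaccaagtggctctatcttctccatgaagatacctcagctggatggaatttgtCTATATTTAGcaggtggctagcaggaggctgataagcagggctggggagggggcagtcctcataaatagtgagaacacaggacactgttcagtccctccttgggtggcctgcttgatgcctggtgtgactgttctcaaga
The matches began 99 bases before the start in Myom1, 74 in Xirp2, 109 in Synpo2l, 61 in Myl7, 35 in Ldb3 and 90 in Mybpc3. Among 15691 genes with such a window, 1.7% held a CArG box and 3.14% a MEF2 box. A CArG box was in 3.8% of the 263 higher genes with a window and 1.58% of the 507 lower ones, and a MEF2 box was in 3.04% of the higher genes and 3.35% of the lower ones. Of the 35 sarcomere genes with a window, 17.1% held a CArG box and 14.3% a MEF2 box. Both motifs stood in front of genes that were higher and of genes that were lower, and a match of letters does not show binding.

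Z-disc and M-band genes held all 4 higher sarcomere genes. Myom1 (myomesin 1, which cross-links thick filaments at the M-band) had 11.84 on siCtrl against 8.96 on GT/M2TAD, and 11.70 on siEp300, 6.63 on GT/M2, 6.34 on GT/M1, 6.94 on GT/M6 and 6.17 on MEF. Xirp2, an actin-binding protein of cell junctions in heart muscle, had 11.09 on siCtrl against 9.17 on GT/M2TAD, and 11.12 on siEp300, 5.50 on GT/M2, 3.97 on GT/M1, 2.77 on GT/M6 and 3.998 on MEF. Synpo2l, a Z-disc protein, had 16.38 on siCtrl against 15.12 on GT/M2TAD, and 15.33 on siEp300, 12.70 on GT/M2, 9.50 on GT/M1, 10.21 on GT/M6 and 5.35 on MEF. For these 3 genes siCtrl, siEp300 and GT/M2TAD were the 3 highest arrays. Xirp1, a relative of Xirp2, had 9.16 on siCtrl against 6.07 on GT/M2TAD.

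The 6 lower sarcomere genes included the atrial light chain Myl7, with 10.67 on siCtrl against 13.16 on GT/M2TAD (-2.49), and 11.20 on siEp300, 15.50 on GT/M2, 16.03 on GT/M1, 16.18 on GT/M6 and 3.16 on MEF. Myl7 was thus lowest on the siRNA arrays among transduced arrays, and GT/M2TAD was the next. Csrp3 (muscle LIM protein) had 14.47 on siCtrl against 16.46 on GT/M2TAD, Ldb3 (a Z-disc scaffold) had 12.78 on siCtrl against 14.48 on GT/M2TAD and 13.11 on GT/M2, and Mybpc3 (cardiac myosin-binding protein C) had 9.77 on siCtrl against 11.36 on GT/M2TAD. Lmod2, which sets thin filament length, had 8.02 on siCtrl against 9.67 on GT/M2TAD, and 8.79 on GT/M2. Actn2 (alpha-actinin 2) had 8.44 on siCtrl against 9.47 on GT/M2TAD and 8.39 on GT/M2, and its difference of -1.03 became -0.73 to -0.84 after the 3 scalings. Among widely used cardiomyocyte genes, named outside the naming rule after their values were seen, Tnnt2 had 16.79 on siCtrl against 17.67 on GT/M2TAD, Actc1 had 13.32 on siCtrl against 13.93 on GT/M2TAD, and Myh6 had 5.81 on siCtrl against 8.21 on GT/M2TAD, with both Myh6 signals below the floor. None of the 3 was counted. Other members, named in the same way, were higher on siCtrl and not counted either. Tnnc1 had 14.23 on siCtrl against 13.28 on GT/M2TAD, and Ttn had 10.72 on siCtrl against 9.78 on GT/M2TAD. Of the 42 sarcomere genes, 21 had a difference above 0.

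**Figure D3:**
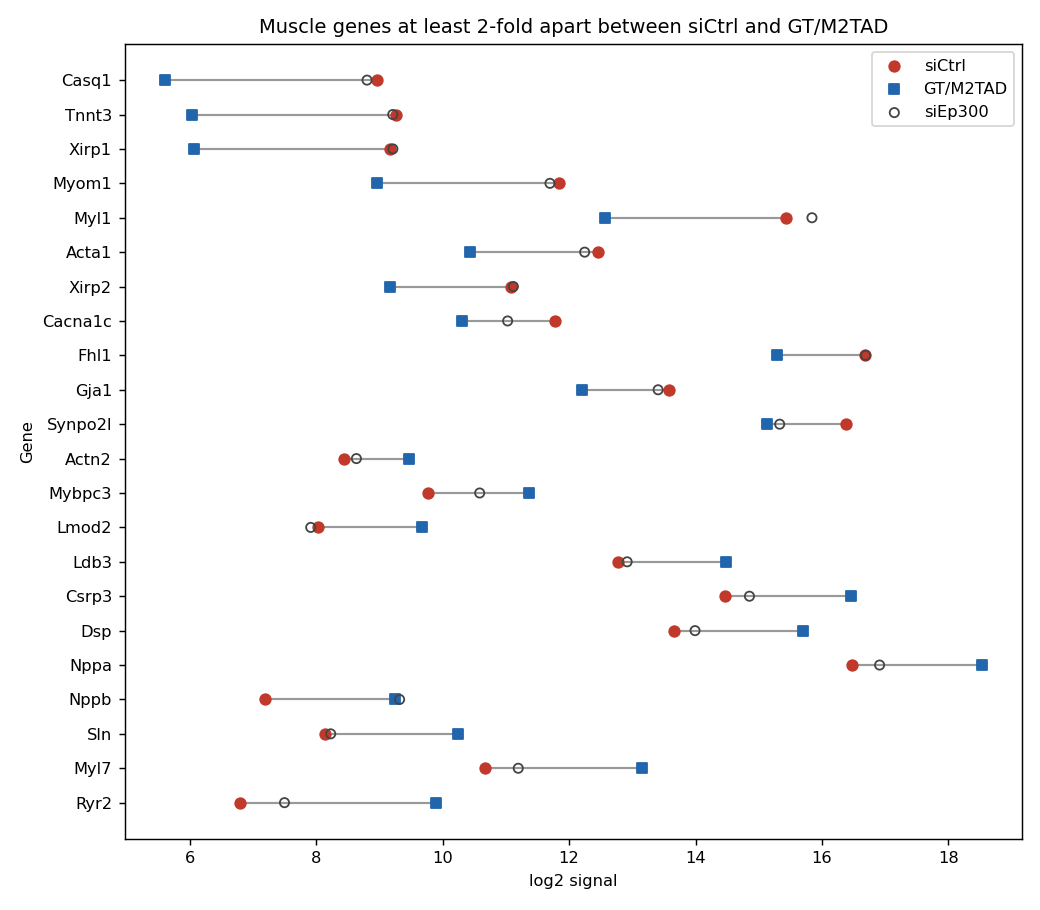
Log2 signal (x axis) of the sarcomere, calcium and ion channel, hormone and stress, and skeletal muscle genes that were at least 2-fold apart, on siCtrl (circles), GT/M2TAD (squares) and siEp300 (open circles), 1 array each. Myom1 and Myl1 lie to the right on siCtrl, and Nppa, Myl7 and Ryr2 to the left; the open circles lie close to the siCtrl circles for most genes, with Nppb an exception.

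Calcium handling and channel genes were split, with 3 of 39 higher and 3 lower (median -0.13). Ryr2, the cardiac calcium release channel, had 6.79 on siCtrl against 9.89 on GT/M2TAD (-3.10), and 7.50 on siEp300, 10.36 on GT/M2, 11.66 on GT/M1, 11.25 on GT/M6 and 3.12 on MEF. Sln (sarcolipin, an inhibitor of the calcium pump) had 8.14 on siCtrl against 10.24 on GT/M2TAD, and 7.67 on GT/M2. Dsp (desmoplakin, a desmosome protein) had 13.67 on siCtrl against 15.70 on GT/M2TAD. On the higher side, Casq1, the skeletal calsequestrin, had 8.97 on siCtrl against 5.62 on GT/M2TAD, Cacna1c, the L-type calcium channel, had 11.78 on siCtrl against 10.30 on GT/M2TAD, and Gja1 (connexin 43) had 13.58 on siCtrl against 12.20 on GT/M2TAD and 13.03 on GT/M2.

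Of 16 heart hormone and stress genes 2 were higher and 2 were lower. The list had no settled direction: its median was -0.17, its mean 0.02, and its median 0.02 after median centring and 0.38 against GT/M2. Nppa, the atrial natriuretic peptide gene, had 16.47 on siCtrl against 18.52 on GT/M2TAD, and 16.91 on siEp300, 16.10 on GT/M2, 16.77 on GT/M1, 14.88 on GT/M6 and 5.09 on MEF. For Nppa the fusion array was the highest of the 7. Nppb, the brain natriuretic peptide gene, had 7.19 on siCtrl against 9.25 on GT/M2TAD, but 9.32 on siEp300 and 6.86 on GT/M2. Acta1, the skeletal alpha-actin of stressed heart, had 12.46 on siCtrl against 10.43 on GT/M2TAD, and Fhl1, a LIM protein, had 16.69 on siCtrl against 15.28 on GT/M2TAD. Of 32 cardiac transcription factors, a list that includes the delivered ones, 1 was higher and 2 were lower, the delivered Tbx5 and Tbx2, which was not delivered. Foxp1 had 13.11 on siCtrl against 11.75 on GT/M2TAD, and Tbx2 had 8.30 on siCtrl against 10.22 on GT/M2TAD.

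The skeletal muscle list bears on a difference in the MyoD domain only if the title of the siCtrl array holds. Of its 37 genes, 3 reached the floor, 2 were higher and 0 were lower (median 0.18). Myl1, the fast skeletal myosin light chain, had 15.43 on siCtrl against 12.56 on GT/M2TAD (2.87), and 15.84 on siEp300, 10.13 on GT/M2, 6.77 on GT/M1, 7.29 on GT/M6 and 6.85 on MEF. The array order for Myl1 was siEp300, siCtrl, GT/M2TAD and GT/M2, then the rest. Tnnt3, the fast skeletal troponin T, had 9.26 on siCtrl against 6.04 on GT/M2TAD. All 8 myogenic regulators of the list were below the floor. Some other members below the floor on both arrays, named outside the naming rule after their values were seen, also differed. Myh3 had 6.48 on siCtrl against 2.90 on GT/M2TAD and Myh8 had 8.14 against 5.27, whereas Pvalb had 5.05 against 7.28. Of the 37 genes, 24 had a difference above 0.

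In the list of fatty acid and mitochondrial genes, all that were counted were lower on siCtrl. Of 33 fatty acid and mitochondrial genes 0 were higher and 6 were lower (median -0.53), and with siEp300 in place of siCtrl 3 were lower. All 16 mitochondrial members had a difference below 0 as deposited, a sign shared by 60.1% of all genes. After median centring 13 of the 16 were below 0, beside 46.8% of all genes, and after level-dependent centring 12 were, beside 50.4%. Pdk4, a kinase that shuts pyruvate out of the mitochondrion and a marker of fatty acid use, had 11.12 on siCtrl against 14.29 on GT/M2TAD (-3.16), and 12.50 on siEp300, 13.07 on GT/M2, 12.46 on GT/M1, 12.54 on GT/M6 and 5.99 on MEF. Acadm, a dehydrogenase of fatty acid oxidation, had 8.43 on siCtrl against 10.49 on GT/M2TAD. Lpl (lipoprotein lipase) had 8.29 on siCtrl against 10.09 on GT/M2TAD. In the citric acid cycle and respiratory chain, Cs (citrate synthase) had 13.48 on siCtrl against 14.67 on GT/M2TAD, Sdha had 9.10 on siCtrl against 10.40 on GT/M2TAD, and Atp5b, a subunit of ATP synthase, had 16.32 on siCtrl against 17.32 on GT/M2TAD (-1.01, and -0.82 after median centring).

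The 20 largest negative differences held more metabolic genes. Ppp1r3c, a subunit that targets a phosphatase to glycogen, had 12.07 on siCtrl against 16.46 on GT/M2TAD (-4.39), and 12.46 on siEp300, 15.68 on GT/M2, 13.59 on GT/M1, 13.59 on GT/M6 and 3.40 on MEF. Acaa2, the thiolase of mitochondrial fatty acid oxidation, had 11.64 on siCtrl against 14.98 on GT/M2TAD, and 12.88 on siEp300, 16.20 on GT/M2, 15.59 on GT/M1, 15.31 on GT/M6 and 11.36 on MEF. For both genes siCtrl was the lowest transduced array. Chchd10, a mitochondrial intermembrane protein, had 7.97 on siCtrl against 11.50 on GT/M2TAD, and Fabp7, a fatty acid binding protein, had 8.72 on siCtrl against 12.10 on GT/M2TAD.

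The remaining strongly lower genes had varied roles. Cdhr1, a cadherin-related protein of photoreceptors, had 6.44 on siCtrl against 12.48 on GT/M2TAD (-6.03), and 6.77 on siEp300, 11.13 on GT/M2, 8.46 on GT/M1, 7.50 on GT/M6 and 2.93 on MEF. Rab3b, a GTPase of secretory vesicles, had 5.97 on siCtrl against 10.86 on GT/M2TAD, and 6.60 on siEp300, 10.91 on GT/M2, 12.13 on GT/M1, 12.46 on GT/M6 and 4.38 on MEF. C3ar1, the receptor of complement C3a, had 4.98 on siCtrl against 9.51 on GT/M2TAD and between 4.46 and 5.73 on the 5 other arrays, so GT/M2TAD alone stood apart. Cap2, an actin regulator of striated muscle, had 9.92 on siCtrl against 13.72 on GT/M2TAD. Anpep (aminopeptidase N) had 6.68 on siCtrl against 10.70 on GT/M2TAD, and Lrp8, a lipoprotein receptor, had 7.19 on siCtrl against 10.97 on GT/M2TAD. Of the 20 genes, 12 had a siCtrl signal below the floor.

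**Figure D4:**
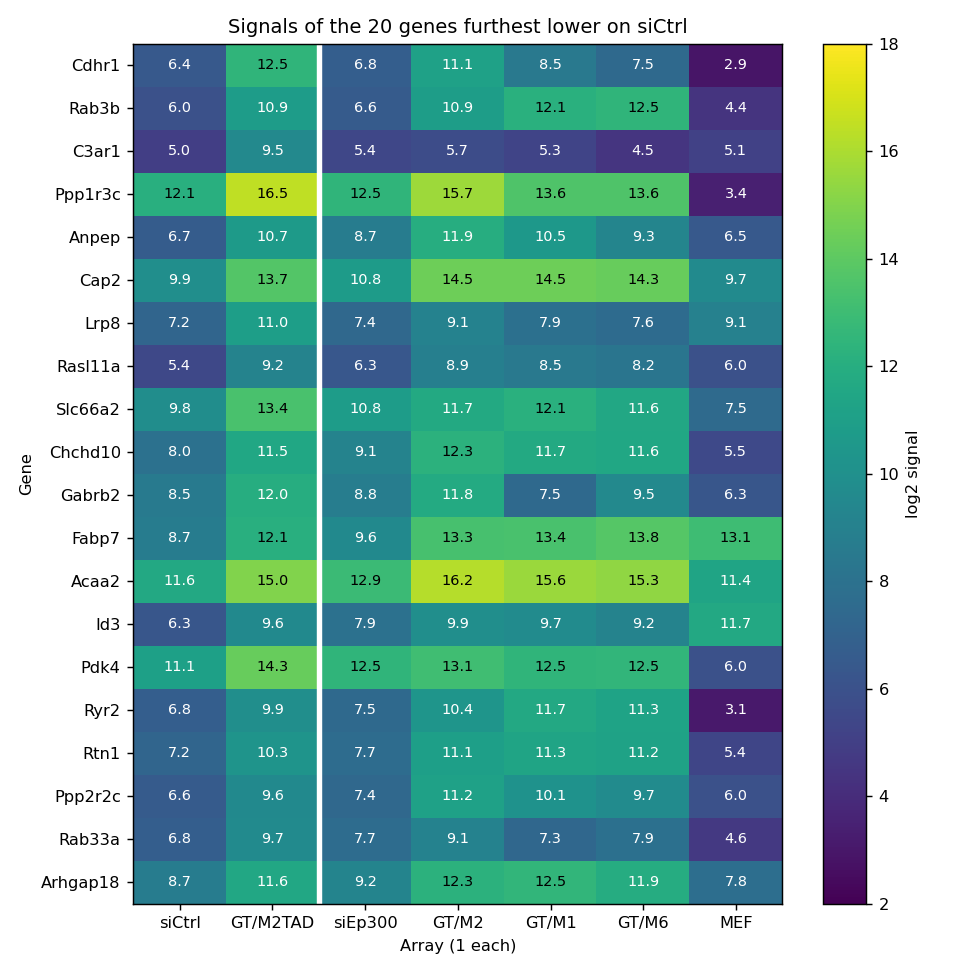
Log2 signals on the 7 arrays (columns, 1 array each) of the 20 genes with the largest negative difference (rows, largest at the top). Both siRNA columns are lower than GT/M2TAD in each row, and for C3ar1 the GT/M2TAD signal of 9.51 is the only one above the floor.

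Of 27 cholesterol and lipid synthesis genes 22 reached the floor, 0 were higher and 5 were lower, with a median of -0.44. Among all genes that reached the floor, 10.7% were lower. Srebf2, the master factor of sterol synthesis, had 14.29 on siCtrl against 15.54 on GT/M2TAD, and Lss (lanosterol synthase) had 10.76 on siCtrl against 12.01 on GT/M2TAD and 11.39 on GT/M2. Elovl6, a fatty acid elongase, had 10.18 on siCtrl against 12.39 on GT/M2TAD, Mylip, which degrades the LDL receptor, had 8.79 on siCtrl against 10.84 on GT/M2TAD and 8.99 on GT/M2, and Scd1 (a desaturase) had 15.22 on siCtrl against 16.41 on GT/M2TAD. Against GT/M2 in place of GT/M2TAD the median of this list was 0.44, so its direction depends on which array is set beside siCtrl. Of 32 oxidative stress genes 24 reached the floor, 1 was higher and 3 were lower, so the lower share was close to that of all genes. Gpx3, a secreted glutathione peroxidase, was among the lower ones, with 15.39 on siCtrl against 17.74 on GT/M2TAD. Of 29 glycolysis and hypoxia genes 2 were higher and 1 was lower. Slc16a3, a lactate exporter, had 9.31 on siCtrl against 6.42 on GT/M2TAD, and Slc2a1, a glucose transporter, had 13.59 on siCtrl against 12.49 on GT/M2TAD. Gapdh was level, with 17.87 on siCtrl and 17.89 on GT/M2TAD.

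Cell cycle genes had low signals. Of 41 mitosis and cyclin genes 8 reached the floor, 0 were higher and 2 were lower (median -0.62): Cenpa, the centromeric histone, had 10.07 on siCtrl against 12.46 on GT/M2TAD, and Kif23, a cytokinesis motor, had 8.27 on siCtrl against 9.85 on GT/M2TAD. Of 31 DNA replication genes 2 reached the floor and none was counted. Of 27 p53 targets and Cdk inhibitors 3 were higher and 0 were lower, with 6 or 7 higher after scaling. Plk2 had 13.57 on siCtrl against 10.87 on GT/M2TAD, Cdkn2a had 9.15 on siCtrl against 7.81 on GT/M2TAD and 8.40 on GT/M2, and Cdkn2b had 11.33 on siCtrl against 10.11 on GT/M2TAD. Cdkn1a, the p21 gene, was not counted, with 18.39 on siCtrl and 18.05 on GT/M2TAD.

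Added double-stranded RNA can be sensed by innate immune receptors, so interferon and sensing genes were set beside the rest. Of 46 interferon response genes 9 reached the floor, 3 were higher and 0 were lower (median 0.38). Irgm1, an interferon-induced GTPase, had 12.49 on siCtrl against 10.04 on GT/M2TAD, and 12.83 on siEp300, 7.65 on GT/M2, 8.19 on GT/M1, 9.77 on GT/M6 and 9.36 on MEF. Usp18 had 9.20 on siCtrl against 7.50 on GT/M2TAD, and Samd9l had 9.78 on siCtrl against 8.70 on GT/M2TAD. The other members that reached the floor were not counted. Their differences were 0.76 for Ifi27, 0.31 for Lgals3bp, 0.16 for Ifnar2, -0.03 for Ifngr2, -0.78 for Ifnar1 and -0.96 for Stat2. Ifit1, Isg15, Mx1 and Ifnb1 were below the floor on both arrays. Some of these are named outside the naming rule, and a part of the siRNA was not tested. Of 28 sensing and RNA interference genes only Samhd1 was counted, with 12.13 on siCtrl against 10.99 on GT/M2TAD, while Ago2, the slicer of RNA interference, had 12.08 on siCtrl and 12.37 on GT/M2TAD. Of 45 chemokines and cytokines 6 reached the floor, 5 were higher and 1 was lower. Ccl17 had 14.48 on siCtrl against 12.52 on GT/M2TAD, and 15.03 on siEp300, 7.29 on GT/M2, 6.59 on GT/M1, 7.76 on GT/M6 and 7.14 on MEF. Cxcl12 had 12.84 on siCtrl against 10.64 on GT/M2TAD, and the NF-kB inhibitor Nfkbia had 8.42 on siCtrl against 9.74 on GT/M2TAD. None of 20 complement and MHC class I genes was counted.

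Of 34 immediate early genes, which respond within minutes to serum or stress, 5 were higher and 3 were lower. Egr1 had 12.61 on siCtrl against 10.08 on GT/M2TAD, Dusp1 had 14.61 on siCtrl against 12.96 on GT/M2TAD, and Dusp5 had 9.06 on siCtrl against 10.62 on GT/M2TAD. Of 36 unfolded protein and amino acid response genes 5 were higher and 0 were lower, and 8 were higher after median centring. Bcat1, which transfers the amino group of branched-chain amino acids, had 11.16 on siCtrl against 6.76 on GT/M2TAD, and 14.71 on MEF. The chaperone Hsp90b1 had 17.43 on siCtrl against 16.39 on GT/M2TAD. Of 23 lysosome genes 1 was higher and 1 was lower, and the lower one was Gpnmb, with 12.10 on siCtrl against 13.99 on GT/M2TAD. Of 30 acetyltransferase, deacetylase and coactivator genes, the class of p300, only Hdac6 was counted, with 10.70 on siCtrl against 11.78 on GT/M2TAD and 11.14 on GT/M2, and it was within 2-fold after each of the 3 scalings. Crebbp, the closest relative of Ep300, had 13.18 on siCtrl and 12.89 on GT/M2TAD.

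Markers of other cell types were mostly at background. None of 18 macrophage and none of 19 adipocyte and chondrocyte markers reached the floor on either array. Of 15 endothelial markers 1 reached it, the Vegf receptor Flt1, with 14.44 on siCtrl against 15.55 on GT/M2TAD, and 13.04 on GT/M2. Of 22 epithelial and mesothelial markers 3 reached it: Krt18 had 8.57 on siCtrl against 6.63 on GT/M2TAD, Krt19 had 7.72 on siCtrl against 10.46 on GT/M2TAD, and Msln was not counted. Of 18 neural and glial markers 2 reached it, and Tubb3 had 7.70 on siCtrl against 9.92 on GT/M2TAD.

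**Figure D5:**
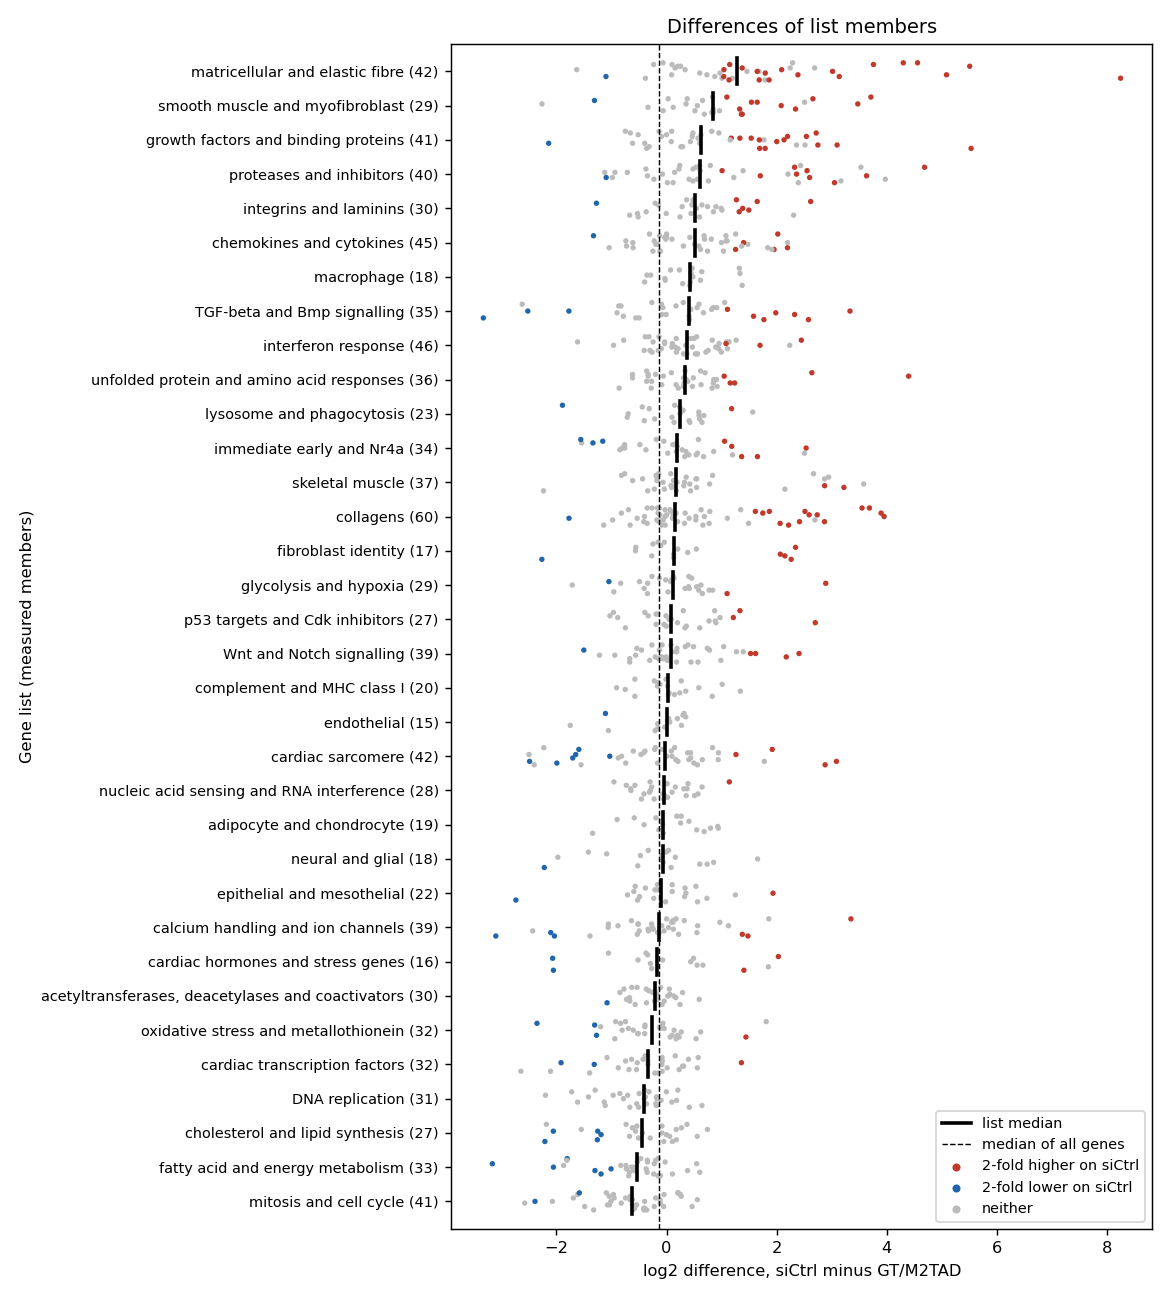
Each point is 1 measured member of a gene list (rows, with the number of members), placed by its log2 difference, siCtrl minus GT/M2TAD; the bar is the list median and the dashed line the median of all genes, -0.14. Matricellular and elastic fibre genes have the highest median, 1.28, and mitosis and cell cycle genes the lowest, -0.62. Of the 41 mitosis and cell cycle members 8 reached the floor, with a median of -0.40. The median over negative-control probes was -0.46.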

How the data were processed

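The deposited values were log2 signals that the authors made with SST-RMA, per the series text, in Affymetrix Expression Console 1.4, per the submitters' processing notes; its settings and a genome build are not given in these sources. Of 28846 probe sets, 19572 had a gene symbol in GEO's platform annotation, covering 19505 genes. For 55 genes with several probe sets the one with the highest mean was used. Computation was in Python 3.11.15 with pandas 2.3.3 and numpy 2.4.6. The counting was tested on simulated data with an assumed noise, in which only genes well above the floor were changed. That test does not bear on calls near the floor. With 1 array per group, precision is limited by the number of arrays and no test was run. Signals near background can understate a difference. They can also show one by background alone, as 57.6% of the negative-control probes that reached the floor were 2-fold apart.

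The gene lists and other members were chosen with earlier results of these data known. The 34 lists name 1135 genes; the array measured 1054, and 81 were not analysed here. Named genes were the 20 highest and 20 lowest differences without predicted genes, up to 8 members per list and direction that passed the rule of size, the 4 members of highest signal where 3 or fewer passed, and the factors; not all are printed. Alternatives were other floors, folds, scalings, probe-set rules and comparator arrays. Promoters are RefSeq's, and motifs were chosen with values known.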

Additional observations from a re-analysis of the deposited data

How the results depend on the processing

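No paired analysis was possible because each group had 1 array. The genes higher and lower numbered 592 and 1245 with the floor at the median gene, 885 and 1570 with no floor, 188 and 217 at a difference of at least 1.5, and 115 and 91 at 2. The lower genes numbered 376 after quantile normalization, 353 after level-dependent centring and 359 with siEp300 in place of siCtrl. With GT/M2 in place of GT/M2TAD the counts were 693 and 1237, the median of the cholesterol and lipid list was 0.44, and the differences changed sign for Actn2 (0.051), Sln (0.47), Nppb (0.32), Nppa (0.37), Thy1 (1.07), Igfbp5 (-2.00), Lama4 (0.29) and Flt1 (1.401). With siEp300 in place of siCtrl, Nppb changed sign (0.065). The cause was not tested. A common floor for both arrays, chosen after seeing the data, gave 303 and 599. Of 174 named genes counted, 166 kept their call after median centring, 169 after quantile normalization and 168 after level-dependent centring, but 145 did with siEp300 in place of siCtrl (28 lost, 1 reversed) and 149 with GT/M2 in place of GT/M2TAD (17 lost, 8 reversed). Among genes named here, the call was lost with siEp300 for Mmp13, Adamts8, Fibin, Synpo2l (0.21), Mybpc3, Actn2, Cacna1c, Sdha (-0.38), Cs, Atp5b, Pcolce, Serpina3n, Kif23, Samhd1, Lss, Scd1, Hsp90b1, Sfrp1 and Angptl4, and with GT/M2 for C3ar1, Ldb3 (-0.33), Lmod2, Gja1, Serpina3n, Cdkn2a, Hdac6, Mylip (-0.20), Lss, Fgf9 (0.38) and Angpt1 (0.27). Over the members that reached the floor alone, 11 list medians moved, among them collagens (1.81), skeletal muscle (2.87) and heart hormone and stress genes (0.44); a member can reach it through the array where it is high. Each difference rests on 1 array a side, and signals under the floor set a limit to its size.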

Other observations

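Aspn and Ogn lie close together in the order of genes of the RefSeq table, and their neighbours were looked up after these values were seen. Ecm2, which lies next to Aspn, had 3.80 on siCtrl and 3.32 on GT/M2TAD, and Omd (osteomodulin), between Aspn and Ogn, had 3.92 on siCtrl and 3.98 on GT/M2TAD. Both are small leucine-rich proteins of the same family, and both stayed below the floor on the 2 arrays. Nol8, on the other side of Ogn, had 10.06 on siCtrl and 10.19 on GT/M2TAD. The 2-fold differences in this stretch were thus those of Aspn and Ogn.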
